A study of Homo sapiens with 9 samples.

Results

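The 59 genes described here act in mitosis or in the G2 phase that leads into it, and were chosen by name: 9 kinases, cyclins and phosphatases of mitotic entry, 2 transcription factors, 6 checkpoint genes, 6 genes of the chromosomal passenger complex and the shugoshins, 7 genes of the centromere and kinetochore, 8 kinesins, 6 spindle proteins, 4 cytokinesis genes, 6 genes of condensin and TOP2A, and 5 genes of anaphase and mitotic exit. All 59 were listed under the same Ensembl identifiers in both count tables, among 57820 genes for Kyse150 and 60683 for TE11. Poly(A) RNA was sequenced from Kyse150 and TE11, 2 established human lines of squamous cell carcinoma of the esophagus, to look for genes downstream of KDM2A, a demethylase of lysine 36 of histone H3. The 9 libraries form 4 groups: 2 of Kyse150 with an shRNA against KDM2A (shKDM2A), 2 of Kyse150 with a control shRNA (shNC), 2 of TE11 labelled shKDM2A and 3 of TE11 with shNC. All cells grew in RPMI medium with fetal bovine serum. The shRNA came by lentivirus; the number of hairpins, the time after infection, and whether the cells were pools or single clones are not stated in what was used here. The protocols count 3 independent replicates but 3 of the 4 groups have 2 libraries, and nothing says that the libraries of a group were separate cultures. The p-values thus rest on the spread among these libraries alone, and that spread may be technical.

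Entry into mitosis is driven by CDK1 bound to B-type cyclins, with polo-like and Aurora kinases acting beside it. Kinetochores then tie chromosomes to the spindle that kinesins and microtubule-binding proteins build, while the spindle checkpoint holds back the anaphase-promoting complex (APC/C) until every chromosome is attached. APC/C with its activator CDC20 then marks cyclin B and securin for destruction, and the cell divides. In cycling cells the transcripts of most of these genes build up in G2 and mitosis under the MuvB core with B-MYB and FOXM1, and the DREAM complex holds them down outside the cycle, in part through the cell cycle homology region (CHR) of their promoters.

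The KDM2A transcript (ENSG00000173120) was checked first. In Kyse150 it had 107 and 104 CPM (counts scaled to a common library size within the line) in the shKDM2A libraries, against 172 and 175 CPM in the shNC libraries, and it fell to 0.611 of control (log2 fold change -0.71, SE 0.07, adjusted p = 3.87e-09, edgeR quasi-likelihood test). In TE11 it had 126 and 139.5 CPM in the libraries labelled shKDM2A, against 120.0, 116 and 120.0 CPM in the shNC libraries, a log2 fold change of 0.16 (SE 0.07, adjusted p = 0.0335). The TE11 label is thus not borne out by the transcript, and these are called the libraries labelled shKDM2A below. That TE11 call was lost in DESeq2 (adjusted p = 0.0739) and without shNC replicate 2 (0.0772), shNC replicate 3 (0.0969) or shKDM2A replicate 2 (0.398). Library totals were 6052883 to 7167055 gene counts in Kyse150 and 8457767 to 12073098 in TE11. The line of the 2 TE11 libraries labelled shKDM2A is in doubt as well. SOX2, a transcription factor of squamous epithelium, had 0 and 1 counts in the TE11 libraries labelled shKDM2A, against 239, 232 and 268 counts in the TE11 shNC libraries, and 0 or 1 in each of the 4 Kyse150 libraries. On a common scale the keratin KRT17 differed from the Kyse150 shNC libraries by a log2 of 0.87 (SE 0.11, adjusted p = 3.61e-10) in the labelled shKDM2A and 5.86 (SE 0.08, adjusted p = 1.51e-55) in the TE11 shNC libraries. Of the 8 squamous epithelial markers, 7 stood closer to Kyse150 shNC than to TE11 shNC in the libraries labelled shKDM2A. Over all genes the median absolute difference of log2(CPM + 1) of these libraries was 0.38 to Kyse150 shNC and 0.66 to TE11 shNC. Whether these 2 libraries are TE11 cells was not tested, so the TE11 values below compare libraries as labelled and cannot be read as a response of TE11 to the shRNA. All 8 squamous markers had at least 1 count in every group. Their summed level was 1809 to 1822 CPM in the shKDM2A and 1995 to 2009 CPM in the shNC libraries of Kyse150, and 1641 to 1685 CPM in the labelled shKDM2A and 4580 to 4977 CPM in the shNC libraries of TE11; the part of this in the changes of mitotic genes was not tested. The 6 leukocyte markers summed to at most 1.78 CPM in any library, with PTPRC at 0 throughout. The 6 fibroblast markers summed to 10.8 to 11.8 CPM in the shKDM2A and 6.37 to 6.70 CPM in the shNC libraries of Kyse150, and to 2.68 to 3.67 CPM in the labelled shKDM2A and 18.2 to 21.2 CPM in the shNC libraries of TE11. The endothelial markers summed to at most 2.26 CPM in the shKDM2A and 2.77 CPM in the shNC libraries of Kyse150, with KDR and TEK at 0, and to 1.05 to 1.78 CPM in the labelled shKDM2A and 6.98 to 9.27 CPM in the shNC libraries of TE11, where the 3 tested were lower in the labelled ones (edgeR). The part of these lists in the TE11 values of mitotic genes was not tested.

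The promoters below belong to members whose values are given library by library. They show the short elements that the family shares and how unevenly it shares them. Each is the RefSeq sequence of GRCh38.p14 over 300 bases, 250 before and 50 after the annotated start, written 5′ to 3′ along the gene. Capitals mark each CHR match (TTTGAA or TTCGAA) and each CCAAT box, on either strand, so that TTCAAA and ATTGG are matches on the opposite strand. CDC20 (chr1:43358731-43359030, plus strand) carries both elements, CCNB1 (chr5:69166900-69167199, plus strand) holds CCAAT boxes alone, and ANLN (chr7:36389612-36389911, plus strand) and SMC2 (chr9:104094059-104094358, plus strand) hold CHR matches alone. UBE2S (chr19:55407739-55408038, minus strand) has a single CCAAT box, and CENPA (chr2:26785806-26786105, plus strand), the 1 member that was higher in the Kyse150 knockdown, carries both elements.
CDC20: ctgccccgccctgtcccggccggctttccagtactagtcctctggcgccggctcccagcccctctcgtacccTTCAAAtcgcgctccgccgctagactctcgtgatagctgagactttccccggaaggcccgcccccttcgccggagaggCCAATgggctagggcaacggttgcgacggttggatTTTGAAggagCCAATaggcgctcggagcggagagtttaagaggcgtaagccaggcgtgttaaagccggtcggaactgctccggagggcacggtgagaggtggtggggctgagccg
CCNB1: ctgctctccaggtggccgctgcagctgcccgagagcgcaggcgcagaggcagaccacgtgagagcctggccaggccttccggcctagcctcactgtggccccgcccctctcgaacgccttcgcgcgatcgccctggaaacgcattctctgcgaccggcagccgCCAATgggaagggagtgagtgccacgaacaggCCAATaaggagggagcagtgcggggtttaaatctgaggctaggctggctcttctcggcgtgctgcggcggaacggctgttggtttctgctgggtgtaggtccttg
ANLN: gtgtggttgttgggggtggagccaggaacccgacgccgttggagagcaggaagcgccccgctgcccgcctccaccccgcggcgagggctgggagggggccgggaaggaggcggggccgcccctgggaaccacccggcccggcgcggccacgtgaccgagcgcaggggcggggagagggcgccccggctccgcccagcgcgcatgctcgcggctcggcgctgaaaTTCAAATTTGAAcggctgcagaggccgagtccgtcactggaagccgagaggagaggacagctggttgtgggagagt
SMC2: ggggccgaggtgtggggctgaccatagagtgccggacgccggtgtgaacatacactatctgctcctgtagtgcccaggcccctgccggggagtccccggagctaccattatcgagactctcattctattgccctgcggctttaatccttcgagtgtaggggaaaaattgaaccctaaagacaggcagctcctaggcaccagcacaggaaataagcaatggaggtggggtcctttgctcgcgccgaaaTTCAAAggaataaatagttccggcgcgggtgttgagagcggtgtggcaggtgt
UBE2S: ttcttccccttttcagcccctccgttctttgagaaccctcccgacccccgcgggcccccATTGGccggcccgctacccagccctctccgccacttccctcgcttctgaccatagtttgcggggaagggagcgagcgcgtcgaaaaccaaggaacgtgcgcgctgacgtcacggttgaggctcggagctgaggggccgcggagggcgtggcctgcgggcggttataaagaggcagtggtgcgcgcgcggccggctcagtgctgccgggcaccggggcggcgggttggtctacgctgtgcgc
CENPA: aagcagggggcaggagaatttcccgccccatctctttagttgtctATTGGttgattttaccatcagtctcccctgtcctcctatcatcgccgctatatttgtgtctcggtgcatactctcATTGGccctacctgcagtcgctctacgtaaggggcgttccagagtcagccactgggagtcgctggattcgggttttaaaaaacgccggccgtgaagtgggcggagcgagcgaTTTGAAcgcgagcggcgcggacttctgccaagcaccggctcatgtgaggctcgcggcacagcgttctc

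Of the 59 members, 50 had a promoter in the RefSeq table. A CHR match lay in 34 of the 50 (68%, 95% Wilson interval 54.2% to 79.2%), against 16.6% of all 27305 promoters of the table and 10.9% of the promoters of genes tested in Kyse150. A CCAAT box lay in 37 (74%, interval 60.4% to 84.1%), against 35.7% of all promoters, and both elements lay in 27 (54%), against 6.58%. In CDC20 the CHR match on the gene's own strand spans bases -65 to -60 relative to the start and the CCAAT boxes bases -100 to -96 and -55 to -51. ANLN has CHR matches side by side on opposite strands, at -26 to -21 and -20 to -15. A match describes these letters only and is no evidence of binding.

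In Kyse150 most of the mitotic transcripts were lower after KDM2A knockdown. Of the 59 members, all of which passed the filter on low counts, 44 fell, 1 rose and 14 did not pass the test (edgeR, adjusted p under 0.05 over all genes). Over all 14060 genes tested, 48.2% were called, 23.3% lower and 24.8% higher. The members' median log2 fold change was -0.40, or 0.756 of control, against a median of 0.00 over all genes, and 55 of 59 members lay below 0. The changes were mostly moderate: 16 members fell past 1.5-fold, and 3 of them, SMC2, HMMR and KIF18A, to less than 0.5 of control. In 53 of 59 members the shKDM2A and shNC libraries did not overlap, 50 lower and 3 higher, but with 2 libraries a group 73.3% of all genes tested also did not overlap, 36.2% lower and 37.1% higher. DESeq2 called 36 members lower and 30.8% of all genes. Of the 45 calls, 39 were kept without shNC replicate 1 (CCNB2, CENPA, CENPE, KIF14, NUF2 and UBE2C lost), 38 without shNC replicate 2 (BUB1, CDK1, CENPA, ESPL1, FOXM1, INCENP and UBE2C lost), 38 without shKDM2A replicate 1 (CCNB2, CDK1, CENPA, DLGAP5, KIF14, NUF2 and UBE2C lost) and 42 without shKDM2A replicate 2 (CENPA, ESPL1 and INCENP lost). Bulk counts cannot tell fewer cells in G2 and mitosis apart from less of each transcript per cell.

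In TE11 the same genes went both ways. Of 57 members tested, 18 were lower and 29 higher in the libraries labelled shKDM2A and 10 did not pass the test (edgeR), where 78.1% of all 16453 genes were called, 42.2% lower and 35.9% higher. Their median log2 fold change was 0.20, against -0.09 over all genes. In 50 of the 57 the groups did not overlap, 19 lower and 31 higher, as in 84.3% of all genes, 45.2% lower and 39.1% higher. The range was wide, with NDC80 at -1.72, DLGAP5 at -1.68 and KIF14 at -1.31 at the low end and FOXM1 at 1.80, ANLN at 1.43 and CENPF at 1.42 at the high end. Of the 47 calls, 42 to 47 were kept without 1 library; those lost in at least 1 such fit were BUB1B, CCNB2, CDC25C, INCENP, KIF18B, KIF23, NCAPD2 and SMC4. NUSAP1 and PRC1 could not be tested, since the TE11 table holds 0 and 3 counts of NUSAP1 in the labelled shKDM2A libraries and 0 in each shNC library, and 3 and 4 counts of PRC1 in the labelled shKDM2A libraries, against 7, 7 and 7 in the shNC libraries. In Kyse150 both were plainly expressed: NUSAP1, a spindle microtubule protein, averaged 94.8 ± 4.72 CPM in the shKDM2A and 106 ± 0.396 CPM in the shNC libraries, and PRC1, the bundler of midzone microtubules, 137 ± 5.17 CPM in the shKDM2A and 168 ± 3.72 CPM in the shNC libraries (SD, n = 2 each). In GENCODE release 29 a second coding gene on the same strand covers 62.2% of the exonic bases of NUSAP1 (AC087721.2) and 57.6% of those of PRC1 (AC068831.7). Both of these are listed in the TE11 table alone. Whether this overlap accounts for the missing counts was not tested.

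**Figure D1:**
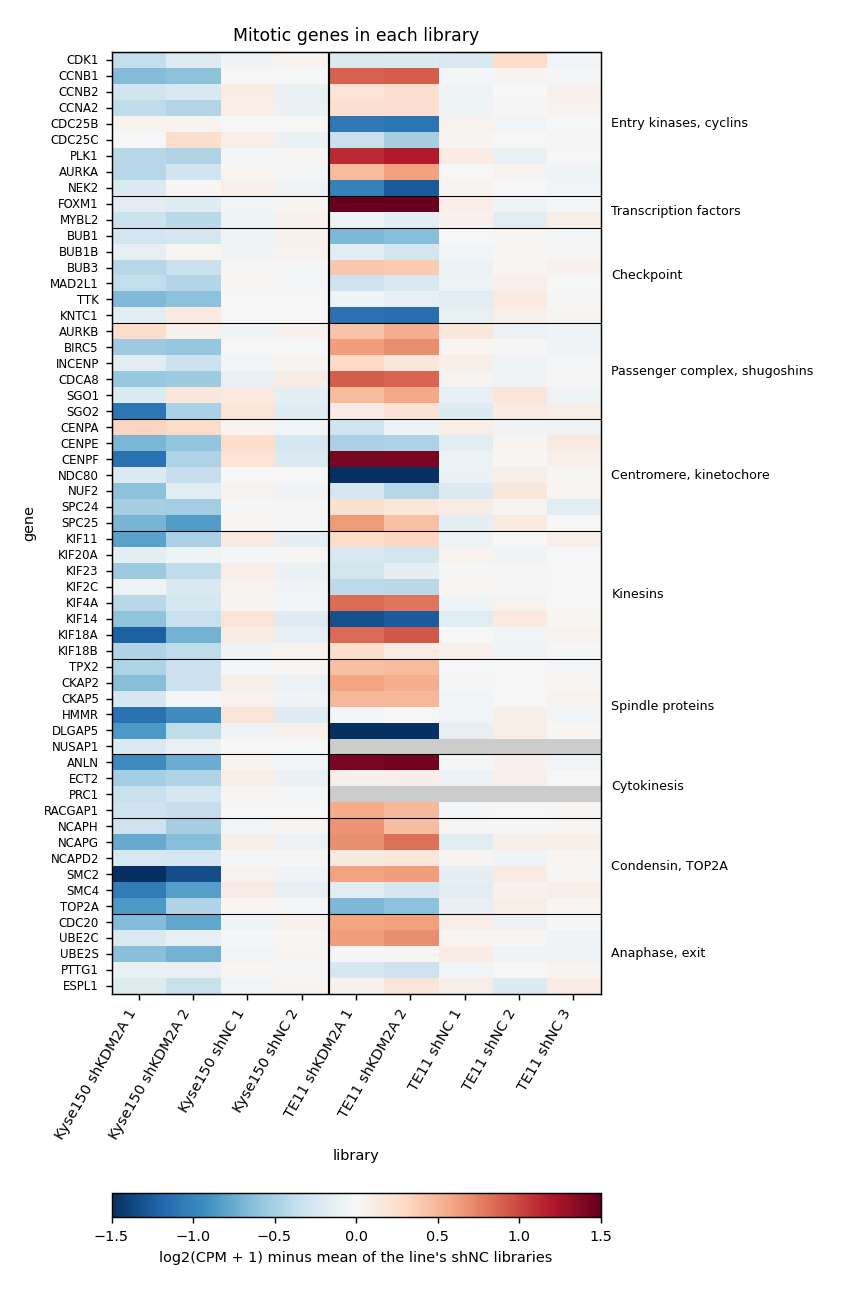
Level of each of the 59 mitotic genes in each of the 9 libraries, as log2(CPM + 1) minus the mean of the shNC libraries of the same line (rows, genes by function; columns, libraries; blue lower, red higher; colours end at -1.5 and 1.5; grey, not tested). The 2 Kyse150 shKDM2A columns are blue in most rows, with SMC2 darkest, whereas the 2 TE11 columns labelled shKDM2A mix dark blue rows such as NDC80 and DLGAP5 with dark red ones such as FOXM1, CENPF and ANLN.

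Among the 9 genes of mitotic entry, 6 fell in the Kyse150 knockdown and 3 did not pass; in TE11 3 were lower, 5 higher and 1 did not pass. CCNB1 (cyclin B1, the activating partner of CDK1; ENSG00000134057) had 242 and 249 CPM in the Kyse150 shKDM2A libraries, against 382 and 381 CPM in the shNC libraries (log2 fold change -0.64, SE 0.06, adjusted p = 5.88e-10). TE11 gave 370.0 and 377 CPM in the libraries labelled shKDM2A, against 198, 205 and 198 CPM in the shNC libraries (log2 fold change 0.90, SE 0.06, adjusted p = 4.51e-18). The groups stood clear of each other in both lines, low with shKDM2A in Kyse150 and high with the shKDM2A label in TE11. PLK1, the polo-like kinase that promotes centrosome maturation and mitotic entry, had 200.0 and 194 CPM in the shKDM2A and 262 and 271 CPM in the shNC libraries of Kyse150 (log2 fold change -0.43, SE 0.06, adjusted p = 1.55e-06). In TE11 PLK1 stood at 189 and 199.6 CPM in the labelled shKDM2A and 94.2, 80.1 and 86.6 CPM in the shNC libraries (log2 fold change 1.16, SE 0.07, adjusted p = 2.56e-19). Again neither pair of groups overlapped and the directions were opposite. CCNB2, CCNA2 and AURKA, the Aurora kinase of spindle poles, did the same at smaller size, at -0.27, -0.42 and -0.36 in Kyse150 and 0.22, 0.25 and 0.55 in TE11. CDK1 itself fell to 0.82 of control in Kyse150 (adjusted p = 0.0182), a call lost under several settings, DESeq2 among them, and stood at -0.23 in TE11 (adjusted p = 0.0682). The phosphatases that switch CDK1 on, CDC25B and CDC25C, and the centrosomal kinase NEK2 did not pass in Kyse150. All of them were lower in the TE11 libraries labelled shKDM2A, CDC25B at 0.468 and NEK2 at 0.449 of control.

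Both transcription factors fell in Kyse150. MYBL2 (B-MYB, a partner of the MuvB core) had 209 and 198 CPM in the shKDM2A and 251 and 274 CPM in the shNC libraries (log2 fold change -0.36, SE 0.06, adjusted p = 3.2e-05). FOXM1, which takes over from B-MYB in late G2, had 261 and 258 CPM in the shKDM2A and 286 and 303 CPM in the shNC libraries (log2 fold change -0.18, SE 0.06, adjusted p = 0.0123). The FOXM1 groups did not overlap, but the fall was small, to 0.881 of control, and its call was lost with library-size scaling (adjusted p = 0.0525) and without shNC replicate 2 (log2 fold change -0.15, adjusted p = 0.132). In TE11, by contrast, FOXM1 had 214 and 217 CPM in the libraries labelled shKDM2A, against 66.2, 59.1 and 60.7 CPM in the shNC libraries, 3.47-fold higher (log2 fold change 1.80, SE 0.07, adjusted p = 1.58e-26). MYBL2 had 167 and 158 CPM in the labelled shKDM2A and 185, 158 and 188 CPM in the shNC libraries of TE11 and did not pass (log2 fold change -0.12, SE 0.07, adjusted p = 0.11). The MYBL2 groups overlapped there. Without TE11 shNC replicate 2 MYBL2 was called lower (log2 fold change -0.21, adjusted p = 0.00251).

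Of the 6 checkpoint genes, 4 fell in Kyse150 and 2 did not pass; in TE11 4 were lower, 1 was higher and 1 did not pass. TTK (MPS1, the kinase that starts checkpoint signalling) had 20.6 and 21.2 CPM in the Kyse150 shKDM2A libraries, against 33.3 and 32.9 CPM in the shNC libraries (log2 fold change -0.67, SE 0.13, adjusted p = 0.000192). In TE11 TTK had 85.8 and 82.4 CPM in the labelled shKDM2A and 80.4, 99.1 and 90.7 CPM in the shNC libraries and did not pass (log2 fold change -0.10, SE 0.08, adjusted p = 0.256). The Kyse150 groups were well apart and the TE11 values overlapped. BUB3, the adaptor that brings BUB1 and BUB1B to kinetochores, had 136 and 145 CPM in the shKDM2A and 185 and 182 CPM in the shNC libraries of Kyse150 (log2 fold change -0.39, SE 0.07, adjusted p = 3.33e-05). It had 237 and 235 CPM in the labelled shKDM2A and 168, 182 and 187 CPM in the shNC libraries of TE11 (log2 fold change 0.40, SE 0.06, adjusted p = 3.57e-07). BUB3 was the 1 checkpoint gene that was higher in TE11. KNTC1, a subunit of the complex that recruits dynein and MAD proteins, had 49 and 61.3 CPM in the shKDM2A and 55.2 and 55.2 CPM in the shNC libraries of Kyse150, where the groups overlapped (log2 fold change -0.01, SE 0.11, adjusted p = 0.973). In TE11 it had 52.1 and 51.3 CPM in the labelled shKDM2A and 106, 120.4 and 118 CPM in the shNC libraries (log2 fold change -1.15, SE 0.08, adjusted p = 4.03e-17). KNTC1 therefore differed between the TE11 groups as labelled and was not detectably different in Kyse150. BUB1 and MAD2L1, which inhibits CDC20, were lower in both lines, at -0.27 and -0.41 in Kyse150 and -0.66 and -0.28 in TE11.

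Of the 6 passenger complex and shugoshin genes, 4 fell in Kyse150 and 2 did not pass, whereas in TE11 5 were higher and 1 did not pass. BIRC5 (survivin, the subunit that reads a phosphorylated histone at centromeres) had 120.0 and 118 CPM in the Kyse150 shKDM2A libraries, against 175 and 176 CPM in the shNC libraries (log2 fold change -0.56, SE 0.07, adjusted p = 1.61e-07). Its TE11 values were 151 and 159 CPM in the labelled shKDM2A and 100.1, 99.3 and 94.1 CPM in the shNC libraries (log2 fold change 0.66, SE 0.07, adjusted p = 8.96e-12). CDCA8 (borealin, which links survivin and INCENP to the centromere) had 70 and 72.3 CPM in the shKDM2A and 97 and 113 CPM in the shNC libraries of Kyse150 (log2 fold change -0.56, SE 0.09, adjusted p = 6.24e-06). For both genes the Kyse150 groups were apart and low with shKDM2A, the CDCA8 shNC libraries being the more spread. CDCA8 had 98.1 and 95.2 CPM in the labelled shKDM2A and 53, 49.9 and 52.1 CPM in the shNC libraries of TE11 (log2 fold change 0.90, SE 0.08, adjusted p = 2.56e-14), also without overlap. INCENP, the scaffold, followed at -0.24 in Kyse150 and 0.24 in TE11. AURKB, the kinase of the complex, stood at 0.18 in Kyse150 (adjusted p = 0.0763) and was higher by 0.49 in the labelled TE11 libraries. SGO2, a protector of centromeric cohesion, fell to 0.56 of control in Kyse150 and stood at 0.16 in TE11 (adjusted p = 0.0775).

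Of the 7 centromere and kinetochore genes, 4 fell, 1 rose and 2 did not pass in Kyse150; in TE11 3 were lower, 2 higher and 2 did not pass. CENPA, the histone H3 variant that marks the centromere, was the 1 member higher in the Kyse150 knockdown, with 43.4 and 42.1 CPM in the shKDM2A and 35.7 and 33.5 CPM in the shNC libraries (log2 fold change 0.30, SE 0.11, adjusted p = 0.0264). In TE11 CENPA had 23.4 and 27.1 CPM in the labelled shKDM2A and 31.2, 27.9 and 28 CPM in the shNC libraries (log2 fold change -0.20, SE 0.11, adjusted p = 0.105). The Kyse150 groups did not overlap, but the rise was 1.23-fold and its call was lost in DESeq2 (adjusted p = 0.177) and without each Kyse150 library in turn (0.0517 to 0.157). SPC24 and SPC25 form one end of the rod-shaped Ndc80 complex that grips microtubules. SPC24 had 45.9 and 45.4 CPM in the shKDM2A and 64.9 and 66 CPM in the shNC libraries of Kyse150 (log2 fold change -0.52, SE 0.10, adjusted p = 7.26e-05), and SPC25 had 16.8 and 15.2 CPM in the shKDM2A and 28.6 and 27.4 CPM in the shNC libraries (log2 fold change -0.80, SE 0.15, adjusted p = 7.82e-05). In TE11 SPC24 had 36.7 and 35.3 CPM in the labelled shKDM2A and 33.8, 32.2 and 27.9 CPM in the shNC libraries (log2 fold change 0.20, SE 0.10, adjusted p = 0.076). In TE11 SPC25 had 41.1 and 35.8 CPM in the labelled shKDM2A and 23.4, 29.1 and 26.1 CPM in the shNC libraries (log2 fold change 0.55, SE 0.11, adjusted p = 1.24e-05). These 2 subunits thus fell together in Kyse150. In the TE11 libraries labelled shKDM2A SPC25 was higher while SPC24 did not pass. SPC24 was called higher there without shNC replicate 1 (log2 fold change 0.25, adjusted p = 0.0207). The other 2 subunits of the same complex, NDC80 and NUF2, were lower in TE11, NDC80 to 0.304 and NUF2 to 0.779 of control. In Kyse150 they stood at -0.28 (adjusted p = 0.0804) and -0.40 (0.031).

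CENPF, a large kinetochore-associated protein that builds up in G2, was the least reproducible member in Kyse150. Its libraries had 113 and 179 CPM with shKDM2A and 285 and 213 CPM with shNC (log2 fold change -0.78, SE 0.36, adjusted p = 0.232). The groups did not overlap but each was spread widely. The log2 fold change was -0.48 without shKDM2A replicate 1 and -1.14 without replicate 2. Each of these fits holds 1 shKDM2A library, so it cannot take the spread between the shKDM2A libraries into account. In TE11 CENPF was far higher in the libraries labelled shKDM2A, at 978 and 974 CPM, against 343, 368 and 384 CPM in the shNC libraries, 2.68-fold (log2 fold change 1.42, SE 0.06, adjusted p = 3.41e-26). CENPE, the kinesin that carries chromosomes to the spindle equator, fell to 0.595 of control in Kyse150 (adjusted p = 0.0124). It was also lower in the TE11 libraries labelled shKDM2A, at 0.709 of control (adjusted p = 2.65e-07). The Kyse150 call was lost in DESeq2, with a GC offset and without shNC replicate 1.

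Of the 8 kinesins, 6 fell in Kyse150 and 2 did not pass, and in TE11 4 were lower and 4 higher. KIF11 (Eg5, which pushes the spindle poles apart) had 48 and 59.7 CPM in the Kyse150 shKDM2A libraries, against 92.3 and 76.8 CPM in the shNC libraries (log2 fold change -0.66, SE 0.11, adjusted p = 9.68e-06). TE11 gave 158 and 161 CPM in the labelled shKDM2A and 123, 130.0 and 137 CPM in the shNC libraries (log2 fold change 0.29, SE 0.07, adjusted p = 0.000151). The groups were apart in each line and the directions opposite. KIF23, the motor of centralspindlin, had 75.6 and 85.1 CPM in the shKDM2A and 118 and 104 CPM in the shNC libraries of Kyse150 (log2 fold change -0.47, SE 0.09, adjusted p = 5.62e-05). Its TE11 values were 123 and 135 CPM in the labelled shKDM2A and 147, 151 and 148 CPM in the shNC libraries (log2 fold change -0.21, SE 0.07, adjusted p = 0.00659), a call lost without shKDM2A replicate 1 (adjusted p = 0.235). KIF23 was lower in both lines. KIF14, a motor of the midbody, had 14 and 17 CPM in the shKDM2A and 25.1 and 18.8 CPM in the shNC libraries of Kyse150 (log2 fold change -0.51, SE 0.17, adjusted p = 0.0169). In TE11 it stood at 45.4 and 48.1 CPM in the labelled shKDM2A and 102, 128 and 118 CPM in the shNC libraries (log2 fold change -1.31, SE 0.09, adjusted p = 7.86e-18). The TE11 groups were far apart and the Kyse150 groups close, and the Kyse150 call was lost in DESeq2 (adjusted p = 0.115) and without shKDM2A replicate 1 (0.147) or shNC replicate 1 (0.299). KIF18A, which limits chromosome swings at the spindle equator, fell to 0.489 of control in Kyse150 (adjusted p = 0.000115). In the TE11 libraries labelled shKDM2A it was 1.89-fold higher (adjusted p = 9.57e-12). KIF4A, a chromokinesin, likewise fell to 0.786 of control in Kyse150 and was 1.78-fold higher in the labelled TE11 libraries. KIF20A and KIF2C, a microtubule depolymerase, did not pass in Kyse150 and were lower in the labelled TE11 libraries, at 0.834 and 0.756 of control.

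Of the 6 spindle proteins, 4 fell in Kyse150 and 2 did not pass; of the 5 tested in TE11, 1 was lower, 3 higher and 1 did not pass. HMMR, a microtubule-binding protein of spindle poles, had 19.4 and 22 CPM in the Kyse150 shKDM2A libraries, against 49.4 and 37.7 CPM in the shNC libraries, 0.474 of control (log2 fold change -1.08, SE 0.14, adjusted p = 4.06e-07). In TE11 the HMMR values overlapped, at 107 and 108 CPM in the labelled shKDM2A and 105, 115 and 105 CPM in the shNC libraries (log2 fold change -0.01, SE 0.07, adjusted p = 0.898). HMMR was thus among the largest falls in Kyse150 and did not pass in TE11. TPX2, which activates AURKA on spindle microtubules, had 324 and 358 CPM in the shKDM2A and 439 and 458 CPM in the shNC libraries of Kyse150 (log2 fold change -0.40, SE 0.06, adjusted p = 2.59e-06). It had 428 and 435 CPM in the labelled shKDM2A and 315, 315 and 310.2 CPM in the shNC libraries of TE11 (log2 fold change 0.46, SE 0.06, adjusted p = 9.54e-10), with no overlap in either line. DLGAP5 (HURP, a stabiliser of kinetochore fibres) had 15.9 and 22.6 CPM in the shKDM2A and 28.3 and 31.2 CPM in the shNC libraries of Kyse150 (log2 fold change -0.63, SE 0.16, adjusted p = 0.0015), a call lost without shKDM2A replicate 1 (adjusted p = 0.0752). In TE11 it had 59.6 and 61.6 CPM in the labelled shKDM2A and 178, 208 and 198 CPM in the shNC libraries, 0.312 of control (log2 fold change -1.68, SE 0.08, adjusted p = 1.1e-23). DLGAP5 was lower in both lines and the more so in TE11. CKAP5, a microtubule polymerase, stood at -0.14 in Kyse150 (adjusted p = 0.0762) and was higher by 0.50 in the labelled TE11 libraries.

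All 4 cytokinesis genes fell in Kyse150, and of the 3 tested in TE11 2 were higher and 1 did not pass. ANLN (anillin, the scaffold of the contractile ring; ENSG00000011426) had 212 and 244 CPM in the Kyse150 shKDM2A libraries, against 424 and 398 CPM in the shNC libraries (log2 fold change -0.85, SE 0.06, adjusted p = 1.76e-11). TE11 gave 733 and 745 CPM in the labelled shKDM2A and 268, 287 and 266 CPM in the shNC libraries, 2.7-fold higher (log2 fold change 1.43, SE 0.06, adjusted p = 2.84e-26). The 4 groups did not touch within either line, and the TE11 libraries labelled shKDM2A were the highest of all. ECT2, the exchange factor that switches on RhoA at the equator, had 83.2 and 86.7 CPM in the shKDM2A and 128 and 111 CPM in the shNC libraries of Kyse150 (log2 fold change -0.49, SE 0.08, adjusted p = 1.84e-05). Its TE11 values were 189 and 190.0 CPM in the labelled shKDM2A and 167, 187 and 178 CPM in the shNC libraries (log2 fold change 0.10, SE 0.07, adjusted p = 0.179), which did not pass. RACGAP1, the partner of KIF23 in centralspindlin, fell to 0.796 of control in Kyse150. It was 1.44-fold higher in the TE11 libraries labelled shKDM2A, where KIF23 was lower.

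The 5 condensin subunits and TOP2A, which compact and disentangle the chromosomes, all fell in Kyse150, with a median log2 fold change of -0.68; in TE11 2 were lower and 4 higher. SMC2, the ATPase core of condensin (ENSG00000136824), had the largest fall of all members in Kyse150. It had 20 and 24.3 CPM in the shKDM2A and 64.7 and 59.9 CPM in the shNC libraries of Kyse150, 0.354 of control (log2 fold change -1.50, SE 0.12, adjusted p = 4.84e-11). In TE11 it had 192 and 194 CPM in the labelled shKDM2A and 115, 137 and 127 CPM in the shNC libraries, 1.53-fold higher (log2 fold change 0.61, SE 0.07, adjusted p = 1.18e-10). SMC4, its partner ATPase, had 49.3 and 57.6 CPM in the shKDM2A and 113 and 94.6 CPM in the shNC libraries of Kyse150 (log2 fold change -0.96, SE 0.10, adjusted p = 6.56e-09). The replicates of both genes sat well apart from the other group. In TE11 SMC4 had 245 and 230.4 CPM in the labelled shKDM2A and 245, 289 and 295 CPM in the shNC libraries (log2 fold change -0.22, SE 0.07, adjusted p = 0.00372), a call lost without shKDM2A replicate 2 (adjusted p = 0.123). Both ATPases therefore fell in Kyse150. In the TE11 libraries labelled shKDM2A SMC2 was higher, and the call of SMC4 as lower was also lost with a GC offset (adjusted p = 0.180). TOP2A, which passes DNA strands through each other, had 111 and 149 CPM in the shKDM2A and 208 and 199 CPM in the shNC libraries of Kyse150 (log2 fold change -0.65, SE 0.09, adjusted p = 2.47e-06). TE11 gave 464 and 483 CPM in the labelled shKDM2A and 676, 789 and 753 CPM in the shNC libraries (log2 fold change -0.64, SE 0.06, adjusted p = 5.22e-13). TOP2A was at 0.638 of control in the Kyse150 knockdown and 0.64 in the TE11 libraries labelled shKDM2A, without overlap in either line. The non-ATPase subunits NCAPG, NCAPH and NCAPD2 fell to 0.607, 0.756 and 0.842 of control in Kyse150 and were 1.7-fold, 1.5-fold and 1.11-fold higher in TE11. On the genome SMC4 shares 18.5% and NCAPG 33.1% of its exonic bases with a gene on the opposite strand, FOXM1 15.9% (ITFG2), SGO1 17.7% (SGO1-AS1) and PLK1 11.6% (AC008870.3, with 6 counts in the Kyse150 and 1362 in the TE11 table), and it is not known here if reads were counted by strand.

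Of the 5 genes of anaphase and exit, 4 fell in Kyse150 and 1 did not pass; in TE11 1 was lower, 2 were higher and 2 did not pass. CDC20, the mitotic activator of APC/C (ENSG00000117399), had 255 and 234 CPM in the Kyse150 shKDM2A libraries, against 383 and 418 CPM in the shNC libraries (log2 fold change -0.71, SE 0.06, adjusted p = 2.62e-10). In TE11 it had 358 and 364 CPM in the labelled shKDM2A and 254, 224 and 236 CPM in the shNC libraries (log2 fold change 0.60, SE 0.06, adjusted p = 5.1e-12). The groups were apart in both lines. UBE2S, which lengthens the ubiquitin chains that APC/C builds, had 296 and 281 CPM in the shKDM2A and 447 and 470.4 CPM in the shNC libraries of Kyse150 (log2 fold change -0.67, SE 0.06, adjusted p = 2.01e-10). In TE11 the UBE2S values overlapped, at 373 and 383 CPM in the labelled shKDM2A and 407, 364 and 363 CPM in the shNC libraries (log2 fold change 0.00, SE 0.06, adjusted p = 1). UBE2C, which starts those chains, fell to 0.887 of control in Kyse150, a call lost in DESeq2 and without 3 of the 4 libraries. It was 1.59-fold higher in the TE11 libraries labelled shKDM2A. ESPL1 (separase) fell to 0.836 of control in Kyse150. Its inhibitor PTTG1 (securin) did not pass there and was at 0.819 of control in the labelled TE11 libraries. UBE2S, UBE2C and PTTG1 have processed pseudogenes, so reads shared with copies make their counts less certain.

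**Figure D2:**
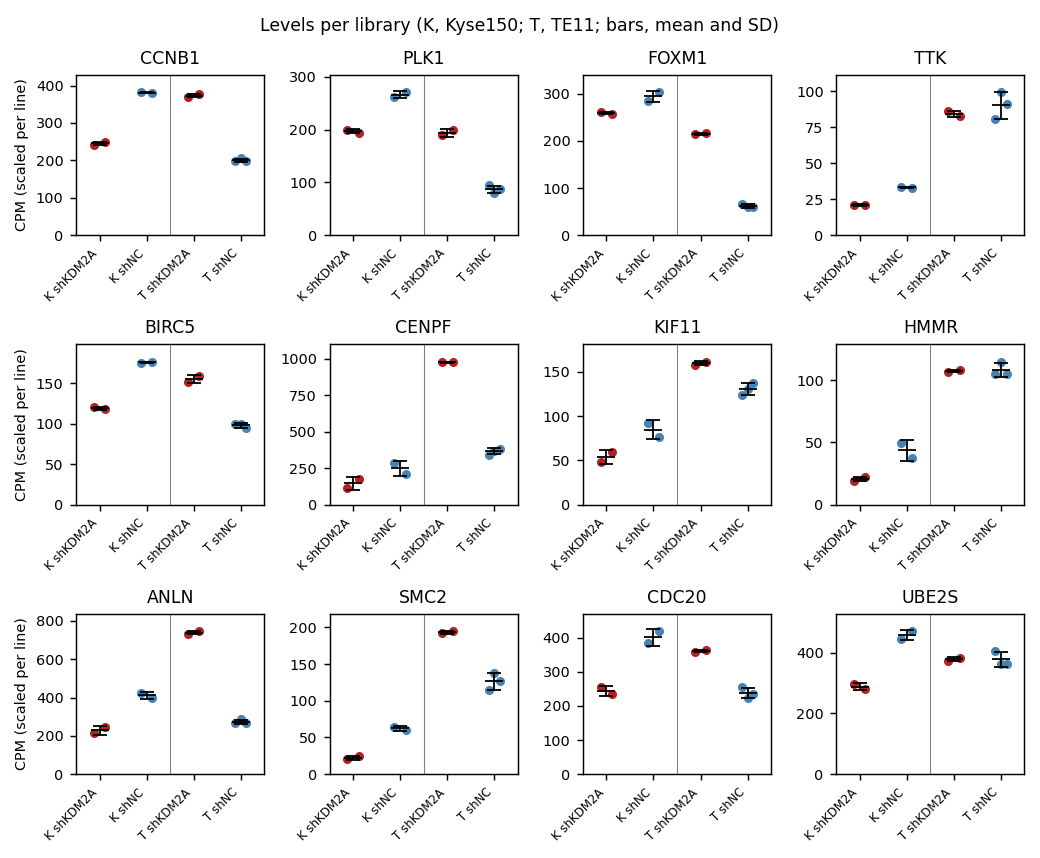
CPM per library, scaled within each line, of 12 of the mitotic genes described library by library (dots, libraries; red, shKDM2A; blue, shNC; black bars, mean and SD; K, Kyse150 with n = 2 each; T, TE11 with n = 2 labelled shKDM2A and n = 3 shNC). In Kyse150 the red dots lie below the blue ones in all 12 panels, as for SMC2 at 20 and 24.3 CPM against 64.7 and 59.9 CPM, while in TE11 they lie above in CCNB1, PLK1, FOXM1, BIRC5, CENPF, KIF11, ANLN, SMC2 and CDC20 and overlap in TTK, HMMR and UBE2S. Most of the 12 were picked for a small p in Kyse150, which favours this pattern. CENPA, higher in Kyse150, and KNTC1, which overlapped there, are not drawn. Of all genes tested in Kyse150, 73.3% had groups without overlap.

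**Figure D3:**
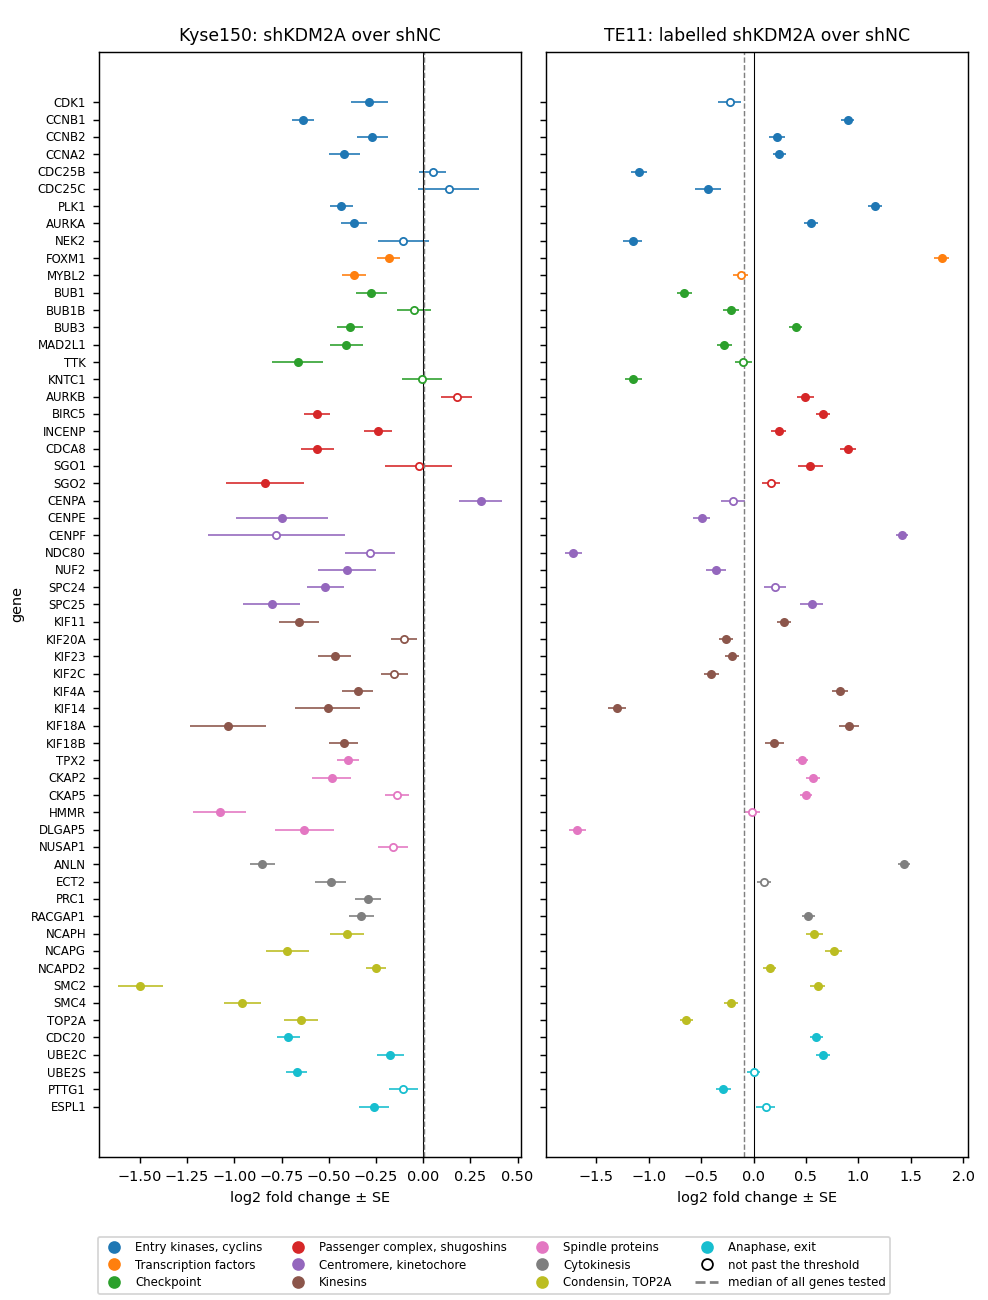
Log2 fold change with its standard error of each mitotic gene, shKDM2A over shNC, in Kyse150 (left) and TE11 (right, by label), coloured by function; open points did not pass the adjusted threshold and the dashed line is the median of all genes tested. The Kyse150 points lie mostly below 0, with SMC2 lowest at -1.50, and the TE11 points spread on both sides of 0, between -1.72 and 1.80.

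The Kyse150 log2 fold change minus that of TE11, called the difference of responses here, was tested in 1 fit of all 9 libraries, with the TE11 side by label only. The difference was below 0 for 40 of the 59 members and above 0 for 10 past the threshold (edgeR), where 66.9% of all 15895 genes were called, 33.8% below and 33.1% above. Without NUSAP1 and PRC1 it was 39 below and 10 above. The members' median difference was -0.64, against 0.06 over all genes. In the single-line tests, 25 of the 57 members tested in both lines were lower in Kyse150 and higher in TE11, where 15.2% of all 13276 genes tested in both were. These were CCNB1, CCNB2, CCNA2, PLK1 and AURKA among the entry genes, FOXM1, BUB3, the passengers BIRC5, INCENP and CDCA8, SPC25, the kinesins KIF11, KIF4A, KIF18A and KIF18B, TPX2, CKAP2, ANLN, RACGAP1, the condensin subunits SMC2, NCAPH, NCAPG and NCAPD2, CDC20 and UBE2C. Another 9 were lower in both lines, where 4.69% of all genes were: BUB1, MAD2L1, CENPE, NUF2, KIF23, KIF14, DLGAP5, SMC4 and TOP2A. Among the members with opposite calls, CCNB2, FOXM1, INCENP, KIF18B, NCAPD2 and UBE2C lost a call in at least 1 alternative fit. Among those lower in both lines, BUB1, CENPE, DLGAP5, KIF14 and NUF2 lost the Kyse150 call in at least 1 such fit. KIF23 and SMC4 likewise lost the TE11 call. For TOP2A the responses differed by -0.03 (SE 0.13, adjusted p = 0.898) and for CENPE by -0.28 (SE 0.23, adjusted p = 0.302), neither past the threshold, whereas those of DLGAP5 differed by 1.03 (SE 0.16, adjusted p = 1.42e-07) and those of SMC4 by -0.76 (SE 0.12, adjusted p = 7.27e-07). Apart from NUSAP1, with almost no TE11 counts, the largest differences were those of ANLN, -2.31 (SE 0.09, adjusted p = 1.41e-32), CENPF, -2.22 (SE 0.31, adjusted p = 0.00133), and SMC2, -2.13 (SE 0.13, adjusted p = 1.04e-21), and on the other side NDC80, 1.42 (SE 0.14, adjusted p = 2.83e-13). The CENPF difference was lost with the replicate number as a block. Without 1 library, 45 to 50 of the 50 calls were kept, and those lost in at least 1 such fit were AURKB, CDC25C, CENPA, KIF23, KIF2C, MYBL2, NUSAP1 and SGO1. No member was called higher in both lines, where 6.47% of all genes were, nor higher in Kyse150 and lower in TE11, where 13.7% were, and edgeR at an unadjusted p under 0.05 had 2 members higher in Kyse150, CENPA and AURKB.

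**Figure D4:**
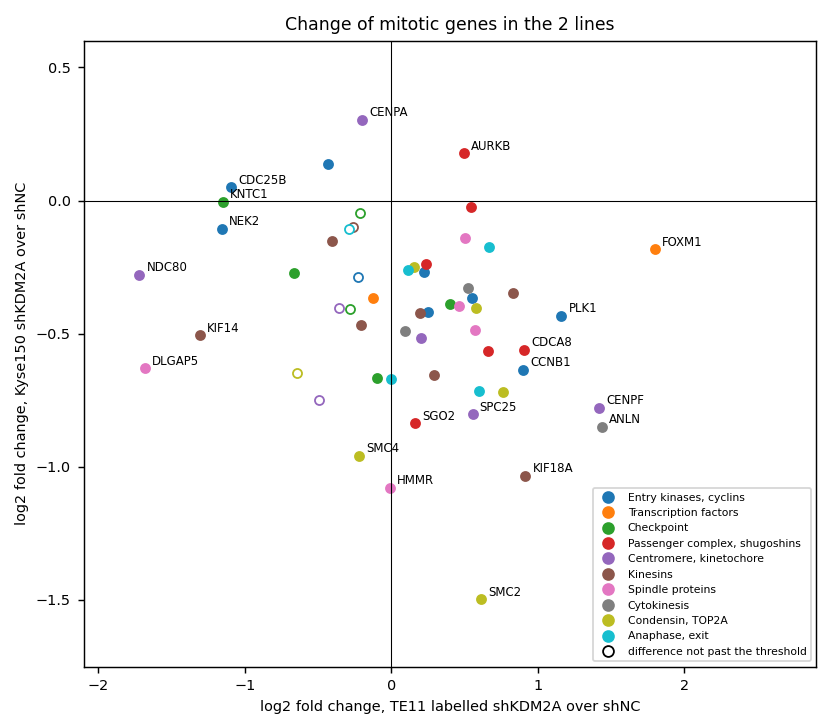
Log2 fold change in Kyse150 (vertical) against log2 fold change in TE11 (horizontal, by label) for the 57 mitotic genes tested in both lines, coloured by function; filled points had a response difference past the threshold. Most points lie below the horizontal line and spread on both sides of the vertical one, with ANLN, CENPF and FOXM1 far right, NDC80, DLGAP5 and KIF14 far left, SMC2 at the bottom and CENPA at the top.

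The summed level of the members was 6336 ± 194 CPM in the shKDM2A and 8384 ± 77.7 CPM in the shNC libraries of Kyse150 (SD, n = 2 each), and 9774 ± 51.4 CPM in the labelled shKDM2A (n = 2) and 8209 ± 189 CPM in the shNC libraries (n = 3) of TE11. Without CENPF and ANLN, chosen after their values were seen, the TE11 sums were 8059 ± 45.8 CPM in the labelled shKDM2A and 7571 ± 165 CPM in the shNC libraries, so these 2 genes held most of that difference. As a share of gene counts, all members included, this was 0.643% in the shKDM2A and 0.822% in the shNC libraries of Kyse150, and 0.989% in the labelled shKDM2A and 0.812% in the shNC libraries of TE11. The groups were also ranked on a common scale of all 9 libraries, which crosses the 2 tables, so line, table and annotation cannot be told apart. Of 57 members with TE11 values, 35 had their lowest group mean in the Kyse150 shKDM2A libraries, against 5 in the TE11 libraries labelled shKDM2A and 17 in the TE11 shNC libraries. The highest mean fell to the TE11 libraries labelled shKDM2A for 20 members, the TE11 shNC libraries for 19 and the Kyse150 shNC libraries for 16.

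Because the KDM2A level goes against the TE11 label, both TE11 groups were also set against the Kyse150 controls. These contrasts cross the 2 tables, so line, table and annotation cannot be told apart, and they share the Kyse150 shNC libraries with each other and with the Kyse150 knockdown contrast. In the TE11 libraries labelled shKDM2A, 14 members were lower and 29 higher than in the Kyse150 shNC libraries (edgeR), where 53.6% of all genes were called, 24.5% lower and 29.1% higher. In the TE11 shNC libraries, 24 were lower and 29 higher, where 79.7% of all genes were called, 36% lower and 43.7% higher; with a GC offset 29 were lower and 18 higher, and the members' median turned to -0.16, against 0.15 without it. NUSAP1 and PRC1 are among the lower ones in each. Several members stood close to the Kyse150 controls in the libraries labelled shKDM2A: log2 differences were 0.06 (SE 0.06, adjusted p = 0.398) for CCNB1, -0.06 (SE 0.06, adjusted p = 0.482) for CDC20 and 0.04 (SE 0.06, adjusted p = 0.634) for TPX2. The same genes in the TE11 shNC libraries differed from the Kyse150 shNC libraries by -0.85 (SE 0.06, adjusted p = 3.54e-21), -0.67 (SE 0.06, adjusted p = 5.19e-16) and -0.44 (SE 0.05, adjusted p = 1.41e-10). For FOXM1 the difference was -0.36 (SE 0.07, adjusted p = 7.13e-06) in the labelled shKDM2A and -2.17 (SE 0.06, adjusted p = 2.38e-38) in the TE11 shNC libraries. Others stayed far from Kyse150 in both TE11 groups. CENPE was higher by 3.21 (SE 0.13, adjusted p = 1.3e-28) in the labelled shKDM2A and by 3.69 (SE 0.12, adjusted p = 5.44e-34) in the TE11 shNC libraries, and SGO2 by 2.20 (SE 0.13, adjusted p = 1.02e-17) in the labelled shKDM2A and 2.02 (SE 0.13, adjusted p = 3.52e-18) in the TE11 shNC libraries. Over the members, the median absolute difference of log2(CPM + 1) of the libraries labelled shKDM2A was 0.50 to the Kyse150 shNC libraries and 0.48 to the TE11 shNC libraries, unlike the all-gene values given with the KDM2A check. By another measure, the log2 ratio of mean CPM on the common scale without NUSAP1 and PRC1, the medians were 0.47 and 0.51. The first pair of medians took all 59 members and the second took 57, so measure and gene set changed together. Which of them turned the order was not tested. By the ratio of mean CPM 28 of 57 members were closer to Kyse150 shNC and 29 closer to TE11 shNC.

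The Kyse150 changes moved with the GC content of the transcript. GC content was that of a gene's longest coding transcript, or of its longest transcript where it had no coding one. Over the 13708 genes with a value, Spearman's rho between log2 fold change and GC content was 0.23, and over the 59 members 0.49. This is a description across genes, which are not independent. The members' transcripts are poorer in GC, with a median of 43.2%, against 49.1% over all genes. In the lowest of 4 equal bins of GC content the median change was -0.57 for the 28 members there and -0.16 for all genes. In the other bins, in rising GC, it was -0.28 for 14 members, -0.25 for 11 and -0.39 for 6, against -0.02, 0.06 and 0.17 for all genes. By the median the members were thus lower than all genes in each bin, and SMC2, HMMR and KIF18A lie in the lowest one. With a GC offset per library, 41 of the 45 Kyse150 calls were kept, CDK1, CENPE, KIF14 and NUF2 losing theirs, and the members' median was -0.35. In TE11 rho was -0.03 over all genes and 0.17 over the members, and 46 of 47 calls were kept. The contrasts across the 2 tables rested on GC more: 32 of 43 calls were kept for the labelled shKDM2A libraries against Kyse150 shNC, with 6 members changing sign, and 41 of 53 for TE11 shNC, with 7 changing sign. FOXM1, PLK1 and BUB3 lost the first of these calls.

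**Figure D5:**
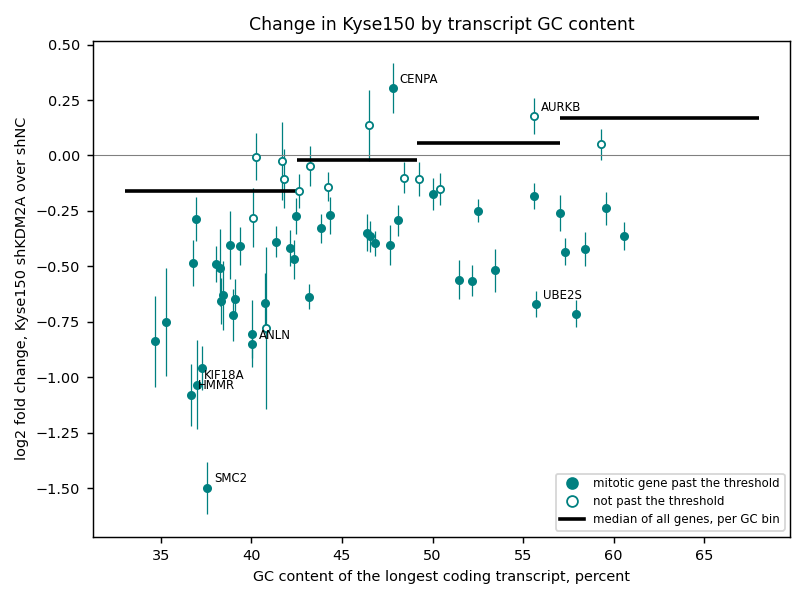
Log2 fold change with its standard error of the 59 mitotic genes in Kyse150 against the GC content of their longest coding transcript in percent; filled points passed the threshold, open points did not, and black bars are the median of all genes in each of 4 GC bins. Most points fall below the bars across the range, furthest at low GC, where SMC2, HMMR and KIF18A lie at -1.50, -1.08 and -1.03, with CENPA and AURKB above.

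Promoter elements were then set beside the calls. A CHR match lay in 27 of the 36 matched promoters of members lower in Kyse150 (75%, Wilson interval 58.9% to 86.2%). It lay in 6 of the 13 of members that did not pass (46.2%, interval 23.2% to 70.9%), and the CENPA promoter also holds one. In TE11 it lay in 17 of 22 promoters of members higher in the libraries labelled shKDM2A (77.3%, interval 56.6% to 89.9%). Of members lower there it lay in 10 of 17 (58.8%, interval 36.0% to 78.4%). The intervals overlap in each line, and a link between element and call was not tested. CCNB1 and UBE2S fell in Kyse150 without a CHR match in the window, and the SMC2 promoter has a CHR match at its start and no CCAAT box.

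Other genes of the pathway were described by 5 further lists with 99 genes. In Kyse150 61 of 98 tested fell and 4 rose, where 48.2% of all genes were called, 23.3% lower and 24.8% higher. In TE11 24 of 97 were lower and 49 higher. Of all genes there 78.1% were called, 42.2% lower and 35.9% higher. Of 16 genes of APC/C subunits and regulators, 11 fell in Kyse150 and 5 did not pass, the smallest p being that of ANAPC15 (72.9 CPM in shKDM2A and 104 CPM in shNC; log2 fold change -0.51, SE 0.08, adjusted p = 1.08e-05). In TE11 ANAPC15 averaged 94.7 CPM in the labelled shKDM2A and 28.3 CPM in the shNC libraries (log2 fold change 1.74, SE 0.08, adjusted p = 6.64e-23), with 2 genes of the list lower and 6 higher. Of 22 other kinetochore genes, 11 fell in Kyse150 and 11 did not pass, with CENPN at 41.6 CPM in shKDM2A and 66.1 CPM in shNC (log2 fold change -0.67, SE 0.10, adjusted p = 3.48e-06). In TE11 4 of them were lower and 11 higher, with NSL1, a subunit of the MIS12 complex, at 179 CPM in the labelled shKDM2A and 45.6 CPM in shNC (log2 fold change 1.97, SE 0.07, adjusted p = 4.8e-27). Of 29 further G2 and mitosis genes, 23 fell and 1 rose in Kyse150, with ZWINT, a kinetochore protein, at 49.4 CPM in shKDM2A and 108 CPM in shNC (log2 fold change -1.13, SE 0.09, adjusted p = 3.94e-11) and PKMYT1, an inhibitory kinase of CDK1, at 104 CPM in shKDM2A and 165 CPM in shNC (log2 fold change -0.66, SE 0.07, adjusted p = 2.01e-08). In TE11 8 of 28 were lower and 15 higher, with the spindle pole protein ASPM at 89.1 CPM in the labelled shKDM2A and 239 CPM in shNC (log2 fold change -1.42, SE 0.08, adjusted p = 1.49e-21).

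Of 14 genes of condensin II and cohesin, 10 fell in Kyse150, the smallest p being that of CDCA5, the cohesin protector sororin (122 CPM in shKDM2A and 173 CPM in shNC; log2 fold change -0.50, SE 0.07, adjusted p = 1.37e-06). In TE11 5 were lower and 7 higher. NCAPD3, a condensin II subunit, averaged 326 CPM in the labelled shKDM2A and 92.5 CPM in the shNC libraries of TE11 (log2 fold change 1.82, SE 0.06, adjusted p = 3.35e-28). The list of DREAM, MuvB and the E2F factors, with 17 genes tested, also held other cell cycle regulators such as CDKN1A. In Kyse150 6 of the 17 fell, 3 rose and 8 did not pass. Over all genes there 48.2% were called, 23.3% lower and 24.8% higher. RBL2 (p130, the pocket protein of DREAM in resting cells) rose to 128 CPM in shKDM2A, against 71.4 CPM in shNC (log2 fold change 0.85, SE 0.08, adjusted p = 1e-09). Its relative RBL1 (p107) fell to 24.1 CPM in shKDM2A, against 47.2 CPM in shNC (log2 fold change -0.97, SE 0.13, adjusted p = 6.81e-07). The 2 pocket proteins thus moved in opposite directions in Kyse150. Their differences of responses, Kyse150 minus TE11 by label, were 1.72 for RBL2 and -1.78 for RBL1. Any part of either gene in the changes of mitotic genes was not tested. In TE11 5 of the list were lower and 10 higher, where 42.2% of all genes were lower and 35.9% higher. E2F4 averaged 199 CPM in the labelled shKDM2A and 92 CPM in the shNC libraries (log2 fold change 1.11, SE 0.07, edgeR adjusted p = 2.02e-18).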

How the data were processed

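Gene counts of 9 libraries were analysed, whose groups are given in their titles. RNA, per the labels' protocols, was isolated with Trizol, mRNA was selected on oligo(dT) beads, and libraries were sequenced in pairs on an Illumina HiSeq Xten. The deposited values are whole-number, raw gene counts, with a separate table for each line. Per the submitters' processing notes, bcl2fastq 2.19, HISAT2 2.1.0, HTSeq 0.9.1 and DESeq2 were used, with the builds GRCh37.p13 and GRCh38.p13. Which table used which build, the annotation and the strand setting are not given in the sources used here; overlapping and antisense genes are therefore uncertain. HTSeq's summary rows were left out. Intervals of shares cover counting error only.

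Each line was fitted on its own in edgeR 4.0.16 under R 4.3.3 with the robust quasi-likelihood method and no term beyond group. Before that, low genes were dropped with filterByExpr at a minimum count of 10 and a total of 15, and TMM factors set the library sizes. A call means a Benjamini-Hochberg adjusted p under 0.05, the adjustment running over every gene tested in that fit. Contrasts between lines came from 1 fit of all 9 libraries over the 52165 genes in both tables. CPM values in the text are scaled within a line, while distances and rankings across lines use the scale of that joint fit. Recovery of known changes was also run on simulated counts, with the outcome not given here. The simulated libraries were drawn independently, so that run cannot show whether the real libraries of a group were separate cultures. Between replicates the chi-square divided by its degrees of freedom was 1.62 to 4.91, above sampling noise, and no library was taken as a repeat.

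The members, the lists and the rules were chosen with earlier results of these data known. Values by library are given for the 2 members of each function with the smallest p in Kyse150, the 1 with the smallest p in TE11, and any member called higher in Kyse150, 26 in all. Up to 3 members at each end of a comparison may be named as well, and for other lists the 2 genes with the smallest p per line; 1 gene that this rule would name is not reported here. Other members are named where a count or a functional group calls for it, with their values seen. Promoters came from a RefSeq table of GRCh38.p14, gene overlaps and GC content from GENCODE release 29 on GRCh38, and gene symbols from that release and a table of gene names. Alternatives were DESeq2 1.42.0, other scalings and filters, a replicate block, a joint fit, each library left out, a shorter promoter window and, chosen after seeing the data, a GC offset and leaving out NUSAP1 and PRC1.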

Additional observations from a re-analysis of the deposited data

Results flagged for a closer look

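For 25 of the 26 members described library by library, the response in Kyse150 differed from that in TE11 past the threshold in 1 fit of all 9 libraries (edgeR, Kyse150 minus TE11, log2). TOP2A was the exception. These 26 were mostly picked by small p within a line, which favours such a result; over all 59 members it was 50, and over all genes 66.9%. The TE11 side rests on libraries whose KDM2A level goes against their label and whose SOX2 and KRT17 levels are nearer to those of Kyse150 shNC than of TE11 shNC. The lowest differences were those of the ring scaffold ANLN (-2.31), the kinetochore protein CENPF (-2.22), the condensin ATPase SMC2 (-2.13) and the transcription factor FOXM1 (-2.00). The entry genes PLK1 (-1.62) and CCNB1 (-1.56), the passenger subunits CDCA8 (-1.49) and BIRC5 (-1.25), SPC25 (-1.38) and the APC/C activator CDC20 (-1.34) followed. HMMR stood at -1.09, KIF11 at -0.97, TPX2 at -0.88, BUB3 at -0.81, SMC4 at -0.76, SPC24 at -0.74, UBE2S at -0.69, ECT2 at -0.61 and TTK at -0.59. The smallest negative ones were KIF23 at -0.29 and MYBL2 at -0.27. On the positive side were the checkpoint gene KNTC1 (1.12), DLGAP5 (1.03), KIF14 (0.78) and CENPA (0.48). For KNTC1, DLGAP5 and KIF14 the lower log2 fold change was that of TE11, by label, whereas CENPA was higher in Kyse150 alone among the calls.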

How the results depend on the processing

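Of the 312 Kyse150 and 338 TE11 results of named members under an alternative, 297 and 325 kept their direction and side of the threshold, and 1 turned round: HMMR in TE11 stood at 0.15 with a GC offset. With library-size scaling the members' median was -0.35 in Kyse150, 0.23 in TE11, -0.59 for the difference of responses, 0.044 for the TE11 libraries labelled shKDM2A over Kyse150 shNC and 0.10 for TE11 shNC over Kyse150 shNC, and 2 members were higher in Kyse150. With the GC offset these medians were -0.35, 0.29, -0.68, 0.050 and -0.16, and 18 members were higher in TE11 shNC than in Kyse150 shNC. The median for the TE11 libraries labelled shKDM2A over Kyse150 shNC was 0.020 with RLE factors and 0.020 in DESeq2. Without NUSAP1 and PRC1 it was 0.23, and that for TE11 shNC 0.22. Without a filter the TE11 shNC over Kyse150 shNC median was 0.19, the KDM2A call in TE11 was lost (0.16, adjusted p = 0.0546), and the median of all genes in TE11 moved to -0.46 as weakly counted genes entered. DESeq2 called 0 members higher in Kyse150, where edgeR had 2 at an unadjusted p under 0.05, and gave KDM2A in TE11 as 0.15 (adjusted p = 0.0739). The joint fit gave a TE11 median of 0.21.

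Deviations of same-numbered libraries correlated at -0.068 in Kyse150 and 0.00058 and -0.0098 in TE11. With 2 libraries in a group the deviations mirror each other, so these values cannot show whether same-numbered libraries were made together. With the replicate block 43 of 45, 44 of 47 and 48 of 50 calls were kept for Kyse150, TE11 and the difference, and KDM2A in TE11 was at 0.17 (adjusted p = 0.0838). The block was not run across the lines, whose numbers share nothing.

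Leaving out 1 library at a time gave 39 to 44 members lower and 0 to 1 higher in Kyse150 (median -0.43 to -0.36; KDM2A -0.73 to -0.70). It gave 15 to 20 lower and 26 to 30 higher in TE11 (median 0.17 to 0.22; KDM2A 0.10 to 0.24), and for the difference 37 to 40 below and 8 to 10 above 0 (median -0.71 to -0.59). For the TE11 libraries labelled shKDM2A over Kyse150 shNC the ranges were 12 to 14 lower, 27 to 29 higher and a median of 0.082 to 0.15, and for TE11 shNC over Kyse150 shNC 23 to 25, 26 to 28 and 0.080 to 0.14. In the 150 promoter bases nearest the start, CHR matches lay in 7.43% and CCAAT boxes in 22.0% of all promoters, and in 62% each of the members' promoters. The causes of these shifts were not tested. With 2 or 3 libraries a group, small changes such as those of CENPA, FOXM1 and UBE2C in Kyse150 depend on single libraries.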
